A study of Trichoderma reesei with 8 samples.

Results

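The 2 genes described here encode acetyl xylan esterases of carbohydrate esterase family 5 (CE5) in *Trichoderma reesei*, a filamentous fungus that secretes enzymes which break down plant cell walls. They were chosen by annotation, as axe1 and a second CE5 acetyl xylan esterase gene with transcript identifier 54219 and no symbol in the files. They are 2 of the 9126 gene models counted, and both stand in the study's table of genes that rose on straw. They are not the whole family: the paper counts 3 acetyl xylan esterases and 1 cutinase in CE5, with the highest expression for these 2. The other CE5 genes could not be tied to a gene model and are not described here. RNA was sequenced from whole mycelia of strain QM6a under 3 growth conditions: 3 libraries after 48 h in medium with 1% glucose (48 h glucose), 3 libraries taken 24 h after washed mycelia of that stage were moved to 1% ground wheat straw (24 h straw), and 2 libraries taken 5 h after glucose was added to such straw cultures (5 h glucose). All 8 libraries come from the same strain, and the study describes the replicates of a condition as independent cultures. Which cultures of 1 condition gave rise to those of the next is not stated. The straw cultures had grown on glucose before, and the 5 h glucose cultures still contained straw.

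Xylan, the main hemicellulose of wheat straw, is a chain of xylose units that carry acetyl groups, arabinose and glucuronic acid as side groups. Acetyl xylan esterases cut off the acetyl groups, which opens the chain to xylanases. The protein encoded by axe1 also carries a cellulose-binding module of family CBM1. In *T. reesei*, genes for such enzymes are known to be transcribed on plant polymers and kept low on glucose.

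Both genes lie on scaffold 1 of genome assembly v2.0. RefSeq places axe1 at bases 520228 to 521336 of that scaffold and the second CE5 gene at bases 2974094 to 2974863, so that their starts are 2453866 bases apart with 682 annotated genes between them. The deposited gene models are estExt_GeneWisePlus.C_10263 for axe1, 962 bases long, and e_gw1.1.1008.1 for the second gene, 642 bases long. The length of 642 bases is a coding length, since all 2538 models of the same prediction set have lengths that are multiples of 3. Levels are given below as deposited read counts and as RPKM, which divides reads by the length of the gene model and by the mapped reads of the library and is the scale on which the levels of the 2 genes are set against each other.

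The libraries held between 798550 and 2997433 reads counted to genes, fewest in the 5 h glucose libraries, and these were between 7.38% and 20.2% of the library totals on which the RPKM rest. Relative to counting noise, straw libraries 1 and 3 lay closer to each other than any other replicate pair. Over 121 genes with 2000 or more reads in each, their median squared difference was 2.12 times counting noise. The pairs with straw library 2 stood at 35.2 and 39.7 times, the 48 h glucose pairs at 85.7 to 98.8 and the 5 h glucose pair at 111. These ratios depend on read depth and on the genes that reach the limit, and both differ between the pairs. They therefore do not rank the distance of library 2 against those of the glucose libraries. Whether libraries 1 and 3 share a culture was not tested, and SDs over the straw libraries treat them as separate. Of the 7211 genes that passed the filter on low counts, 2203 (30.6%) were higher and 2034 (28.2%) were lower on straw than in 48 h glucose at an adjusted p below 0.05. With library totals in place of the TMM scaling, which shifts the median of all genes by 0.80 on the log2 scale, the split was 4294 higher and 753 lower.

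The study moved mycelia to straw to follow the genes that break down plant polymers. The move also took glucose away and added culture time, and these cannot be told apart here from the presence of straw. Both CE5 genes rose on straw: axe1, barely read in 48 h glucose, became the gene with the 12th highest RPKM in each straw library, and the second CE5 gene, nearly without reads in 48 h glucose, ranked between 33rd and 112th. For axe1, the straw libraries held 7580, 10113 and 9634 reads, against 14, 7 and 9 reads in the 48 h glucose libraries. In RPKM these were 585, 836 and 608 on straw, against 1.04, 0.569 and 0.707 in 48 h glucose. The lowest straw library thus stood far above the highest 48 h glucose library. The mean of axe1 was 676 ± 139 RPKM on straw (SD, n = 3) and 0.772 ± 0.243 RPKM in 48 h glucose (SD, n = 3). edgeR's quasi-likelihood test gave a log2 fold change of 8.94, which is 492-fold, at a Benjamini-Hochberg adjusted p of 5.58e-14. Its standard error of 0.29, like those below, was worked back from the test statistic.

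The second CE5 gene had 1252, 2972 and 1460 reads in the straw libraries, against 0, 0 and 1 read in the 48 h glucose libraries. The straw values were 145, 368 and 138 RPKM, against 0, 0 and 0.118 RPKM in 48 h glucose. The straw and 48 h glucose libraries do not overlap here either, and straw library 2 stands well above the other straw libraries. A count of 0 allows up to 3 reads, which would be 0.334 and 0.365 RPKM in the 2 libraries without a read. Over all libraries, 5684 reads on straw stood against 1 read in 48 h glucose, a ratio of 3075 after scaling for library size, with an exact 95% interval of 552 to 121486 that covers counting error only. The test gave an edgeR adjusted p of 1.55e-11. Its fitted log2 fold change was 11.23, a value that depends on the prior count because 48 h glucose held 1 read, and it is no bound. The standard error of 0.60, worked back from the test statistic, understates the counting error that the exact interval shows.

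Both members were thus among the genes called higher on straw, a call shared by 30.6% of the genes tested, and both had straw libraries that did not overlap those of 48 h glucose, as 35.6% of the genes tested did in this direction. Both genes also stand in the study's own table of genes that passed cut-offs on fold rise and level on straw in these libraries. Their direction and the size of their rise are therefore not independent evidence. With library totals in place of TMM, the log2 fold change was 9.75 for axe1 and 11.97 for the second gene. For the second gene it was 10.64 without straw library 2 and 13.36 without 48 h glucose library 3, which held its only read there. Since whole mycelia were sequenced, more hyphae with the transcript and more transcript per hypha on straw cannot be told apart.

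**Figure D1:**
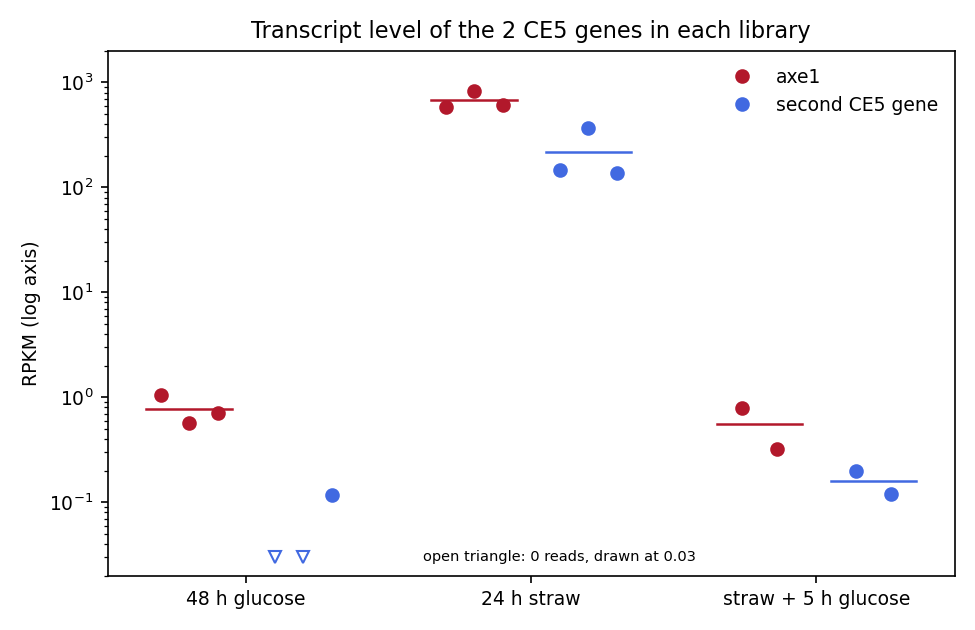
RPKM of axe1 (red) and the second CE5 gene (blue) on a log axis in each library of the 3 conditions; horizontal lines are means, and open triangles mark libraries with 0 reads. The straw libraries lie between 585 and 836 RPKM for axe1 and between 138 and 368 RPKM for the second gene, and every library grown on or returned to glucose lies at 1.04 RPKM or below.

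The later glucose stage addressed carbon catabolite repression, the shutting down of other carbon routes when glucose is at hand. No straw culture of the same age without added glucose was sequenced. Both CE5 genes fell within 5 h. For axe1, the 5 h glucose libraries held 6 and 4 reads, against 7580, 10113 and 9634 reads on straw. The 5 h glucose values were 0.796 and 0.323 RPKM, a mean of 0.559 ± 0.334 RPKM (SD, n = 2), against 676 ± 139 RPKM on straw (SD, n = 3). The level left after 5 h was 0.0827% of the straw mean in RPKM and 0.187% on the TMM scale. The log2 fold change was -9.06 with a standard error of 0.37, at an edgeR adjusted p of 3.47e-12.

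The second CE5 gene had 1 read in each of the 5 h glucose libraries, against 1252, 2972 and 1460 reads on straw. These single reads are 0.199 and 0.121 RPKM in 5 h glucose, and they leave 0.0737% of the straw mean in RPKM and 0.175% on the TMM scale, shares that rest on 2 reads in all and lie under the floor of 3 reads per library. Both 5 h glucose libraries stood far below the lowest straw library. Pooled reads gave a straw level 557 times that of 5 h glucose after scaling for library size, with an exact 95% interval of 154 to 4600. The edgeR adjusted p was 2.65e-09, and the fitted log2 fold change of -9.08 again depends on the prior count. Its standard error of 0.66 likewise understates the counting error that the exact interval shows.

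Both genes were called lower, as were 30.0% of the genes tested, and their libraries did not overlap, as was the case for 38.5% of the genes tested in this direction. With library totals, which moved the median of all genes by -1.27 and gave 443 genes higher and 4850 lower in place of 2056 (28.5%) and 2166, the log2 fold changes were -10.34 for axe1 and -10.35 for the second gene. This comparison and that of straw with 48 h glucose share the straw libraries.

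The comparison of the 2 glucose stages asks whether the level after 5 h had come back to that before the transfer. For axe1, the 5 h glucose libraries had 0.796 and 0.323 RPKM, against 1.04, 0.569 and 0.707 RPKM in 48 h glucose, and the values overlap. The log2 fold change of -0.11 with a standard error of 0.53 did not pass the test (edgeR adjusted p = 0.875). The pooled reads, 10 in 5 h glucose and 30 in 48 h glucose, gave a ratio of 0.920 with an exact 95% interval of 0.401 to 1.93. For the second CE5 gene both stages lay at or under the limit of 3 reads per library, so no fold is given, and the edgeR adjusted p was 0.429. Neither gene was called, while 25.7% of the genes tested were called higher and 23.2% lower. With library totals the median of all genes moved by -0.46 and the split was 847 higher and 2415 lower in place of 1850 and 1671. With so few reads, a change smaller than these intervals was not detectable at this depth. The order of the 3 conditions is therefore straw above both glucose stages for each gene, and the glucose stages could not be told apart at this depth.

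The 2 members differed from each other on straw. The RPKM of the second gene was 0.248, 0.440 and 0.227 times that of axe1 in straw libraries 1, 2 and 3. axe1 was the higher in 3 of 3 straw libraries, 3.43-fold as a geometric mean, and the mean log2 ratio of the second gene over axe1 was -1.78 ± 0.52 (SD, n = 3). A two-sided exact sign-flip permutation test gave p = 0.25, which is the smallest that 3 libraries allow. Of the reads of both genes, the second gene took 14.2% in straw library 1 (exact Clopper-Pearson 95% interval 13.5% to 14.9%), 22.7% in library 2 (22.0% to 23.4%) and 13.2% in library 3 (12.5% to 13.8%). The interval of library 2 is clear of those of libraries 1 and 3, and these intervals cover counting error only. Together the 2 genes took between 0.357% and 0.515% of all counted reads on straw.

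Straw library 2 was the high one for both genes but not to the same degree. On the TMM scale, the second CE5 gene was 2.45-fold higher in library 2 than in the geometric mean of libraries 1 and 3, and axe1 was 1.32-fold higher. On the log2 scale, library 1 minus library 3 was -0.07 for axe1 and 0.05 for the second gene. Among 2902 genes with a straw mean of 200 or more counts, 4 had a larger excess in library 2 than the second CE5 gene and 172 a larger one than axe1, and the median gene was at 0.00. Among the 384 genes with a straw mean of 50 RPKM or more, the coefficient of variation over the straw libraries was 60.3% for the second gene and 20.5% for axe1, with a median of 7.60%. In that group 5 genes, the second CE5 gene included, varied as much as it did.

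In library 2, 4 of 10 genes of a list of xylan-acting enzymes stood above libraries 1 and 3, near the share over all genes, 1432 of 2902, and none of the 10 exceeded axe1. The values ran from -1.59 on the log2 scale for abf1, an arabinofuranosidase gene, to 0.36 for xyn4, a xylanase gene of family GH30. Of 12 genes of a list of cellulose-acting and accessory proteins, 10 stood above and 2 below. The values ran from -1.14 for the xyloglucanase gene cel74a, with cel61a, a monooxygenase gene, at -0.42, to 1.68 for the endoglucanase gene egl1, and the next highest was the beta-glucosidase gene bgl1 at 1.26. Of the 12, 7 exceeded axe1 at 0.40, and egl1 alone exceeded the second CE5 gene at 1.29. These are descriptions of 1 library, and what sets it apart was not tested.

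**Figure D2:**
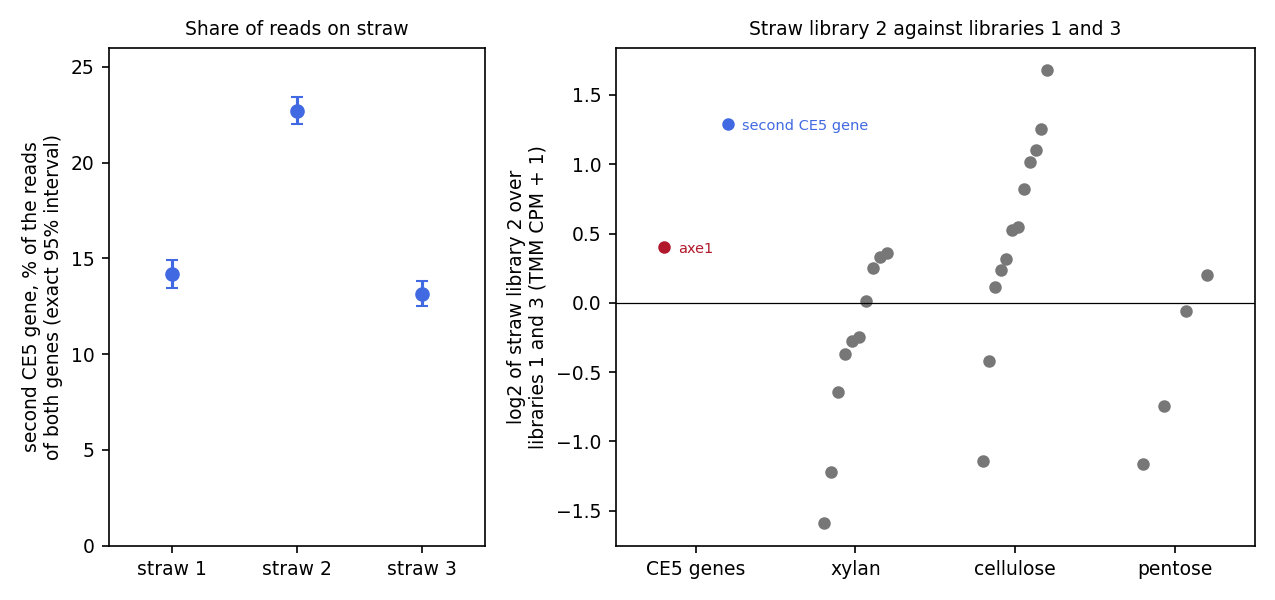
Left, the share of the second CE5 gene in the reads of both CE5 genes in each straw library, with exact 95% intervals; right, log2 of straw library 2 over libraries 1 and 3 on TMM CPM + 1 for the CE5 genes and each gene of the xylan, cellulose and pentose lists. The share is 22.7% in library 2 against 14.2% and 13.2%, and the second CE5 gene at 1.29 lies above every xylan-list gene.

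The xylan-acting list holds 10 genes that the study had put in its table because they passed its cut-offs on fold rise and level on straw in these same libraries. Their direction, the size of their rise and their straw level are therefore not independent evidence. All 10 rose on straw and all 10 fell after glucose, with medians of 9.44 and -8.84 on the log2 scale, against 0.05 and -0.04 over all genes tested. Of all genes tested, 30.6% were called higher on straw and 30.0% lower after glucose. By straw level, axe1 stood the fifth of the 12 genes when the members are included. Above it were the xylanase gene xyn2 at 3777 ± 284 RPKM, xyn4 at 1219 ± 228 RPKM, the beta-xylosidase gene bxl1 at 1183 ± 207 RPKM and the alpha-glucuronidase gene glr1 at 1025 ± 142 RPKM (SD, n = 3 each). The libraries of glr1, from 938 to 1188 RPKM, and of the xylanase gene xyn1, from 438 to 536 RPKM, did not overlap those of axe1 on either side.

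The second CE5 gene stood the ninth of the 12 at 217 ± 131 RPKM (SD, n = 3). The neighbours in that order were abf2, another arabinofuranosidase gene, at 224 ± 86.4 RPKM and abf1 at 92.0 ± 43.9 RPKM. Its libraries overlapped those of abf2, from 125 to 276 RPKM, and did not overlap those of abf1, from 41.3 to 118 RPKM. In abf2, straw library 2 was the lowest of the 3, and in the second CE5 gene it was the highest. The libraries of the second CE5 gene also overlapped those of aes1, an acetyl esterase gene of family CE16, from 331 to 358 RPKM. That overlap rests on library 2 at 368 RPKM, since libraries 1 and 3, at 145 and 138 RPKM, lay below every aes1 library. The glucuronoyl esterase gene cip2, the other esterase of the list, was lower at 88.0 ± 5.91 RPKM. In summed RPKM of these 12 genes, the 2 CE5 genes made up 7.97%, 12.2% and 8.07% in the straw libraries, against 14.0%, 5.72% and 10.2% in the 48 h glucose libraries, and the ranges overlap. In the 5 h glucose libraries they made up 8.68% and 6.18%.

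After 5 h of glucose, the share of the straw RPKM left was 0.0827% for axe1 and 0.0737% for the second CE5 gene, and both values fall inside the range of the xylan list, from 0.0108% for xyn1 to 0.426% for abf1. These ends rest on 0 or 1 read per library for xyn1 and on 2 and 10 reads for abf1, so that 1 library decides each. On the TMM scale the shares were 0.187% for axe1 and 0.175% for the second gene, within 0.0321% to 0.871% in the xylan list. In the cellulose list it ran from 0.0473% for the endoglucanase gene egl2 to 1.97% for the beta-glucosidase gene bgl2 in RPKM, and from 0.125% to 4.93% for the same genes on the TMM scale. Among genes of pentose uptake and catabolism it ran from 0.0918% for a xylose transporter gene to 6.23% for xdh1, which encodes xylitol dehydrogenase, in RPKM, and from 0.214% to 15.0% on the TMM scale for these genes. In the comparison of 5 h glucose with 48 h glucose, bxl1 alone of the xylan list was called, higher with a log2 fold change of 1.81 (edgeR adjusted p = 0.000138). Of the cellulose list, 4 of 12 were called higher and none lower, and of the pentose list 3 of 4 were called higher, beside 25.7% higher and 23.2% lower over all genes tested. The share of the cellulose list is near that background.

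All 12 genes of the cellulose list rose on straw, with a median of 9.35, and all 12 fell after glucose, with a median of -8.14 on the log2 scale. Of the 4 pentose genes all rose, with a median of 7.33, and all fell, with a median of -5.48. Over all genes tested, 30.6% were called higher on straw and 30.0% lower after glucose, with medians of 0.05 and -0.04. Both lists come from the study's tables of genes that passed cut-offs on fold rise and level on straw in these libraries. The direction and size of their rise are therefore not independent evidence. The log2 fold changes on straw of the pentose genes ran from 3.56 for xdh1 to 9.40 for the xylose transporter gene, and axe1, at 8.94, lies within that span.

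**Figure D3:**
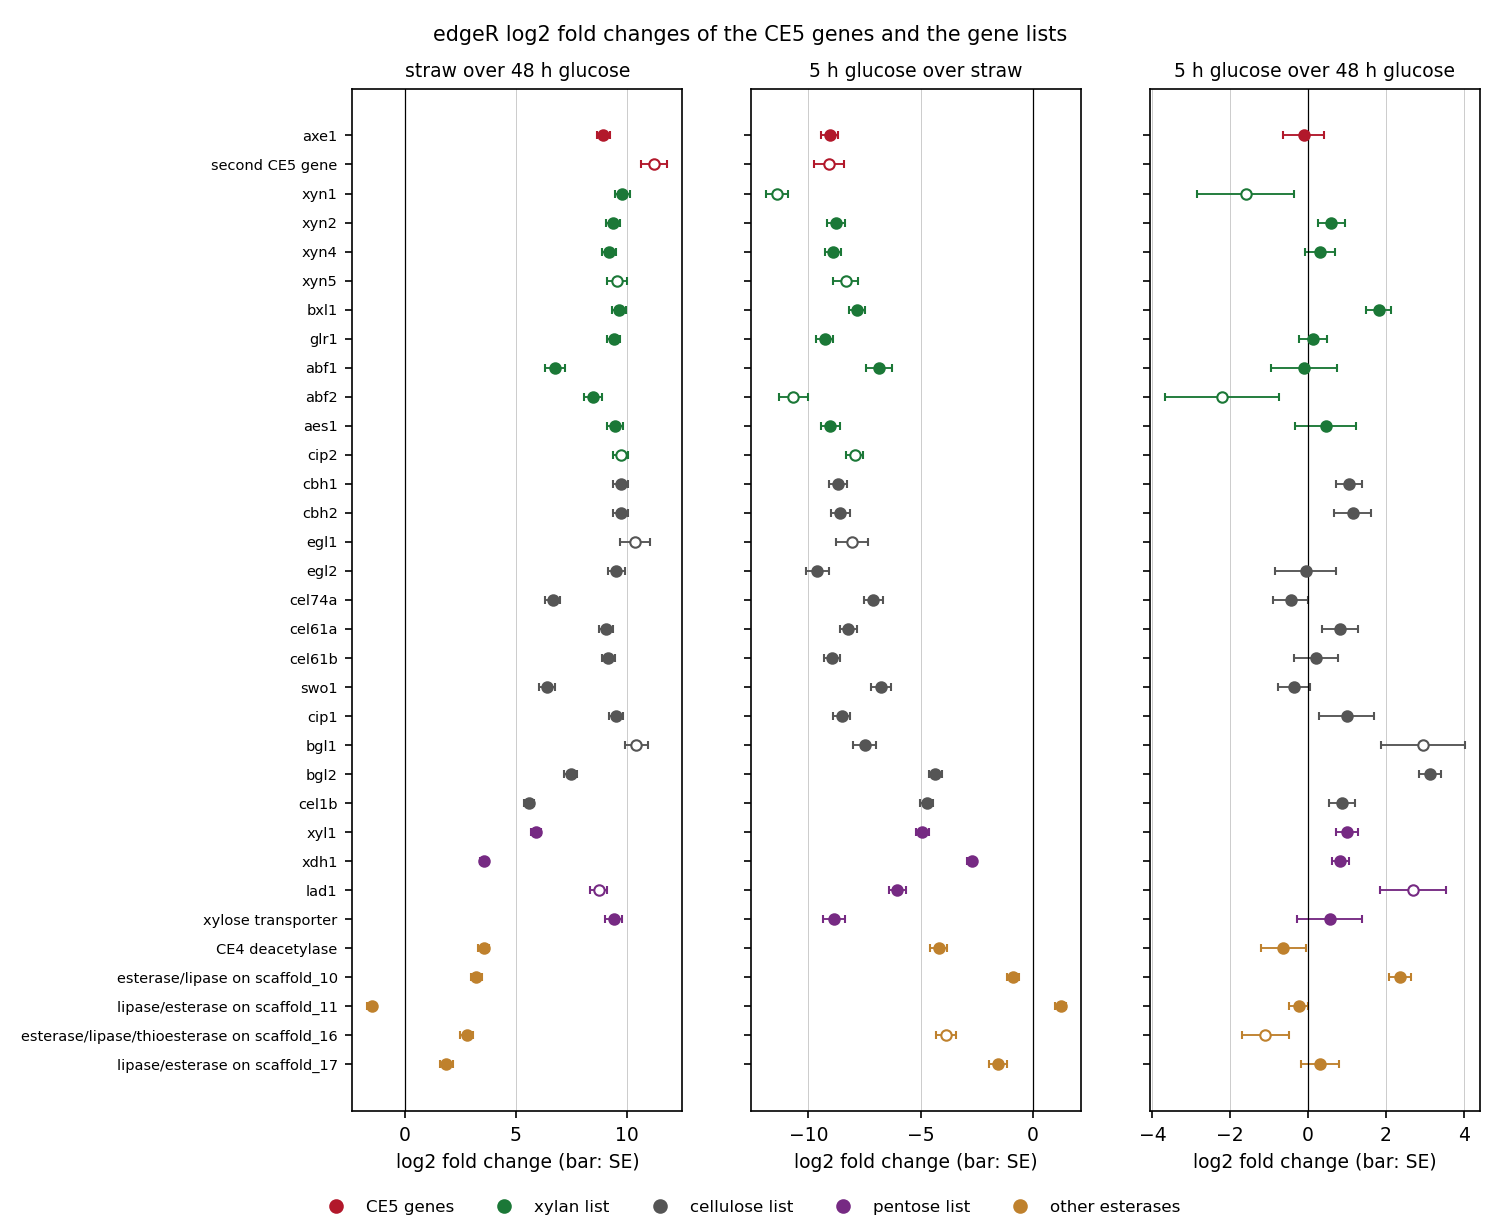
edgeR log2 fold changes for the 2 CE5 genes, the xylan, cellulose and pentose lists and 5 other esterase genes, in 3 panels for the 3 comparisons. Bars are standard errors worked back from the test statistic. Open circles mark genes with 3 reads or fewer in every library of 1 of the groups compared, and genes with so few in both are not drawn. The CE5 genes lie at 8.94 and 11.23 for straw over 48 h glucose and at -9.06 and -9.08 for 5 h glucose over straw.

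A further list held 6 esterase genes picked by their annotation text and not by their level. They were drawn from the part of the study's gene annotation that was at hand, so the list is not the full set of esterases. It comprised a CE4 deacetylase gene, whose family removes acetyl groups from chitin or xylan, and 5 genes annotated only as esterases or lipases. Of these, 5 passed the filter on low counts, 4 rose on straw and 1 fell, beside 30.6% higher and 28.2% lower over all genes tested, with a median log2 fold change of 2.79, against 0.05 over all genes tested. The CE4 deacetylase gene had 14.0 ± 0.972 RPKM on straw and 0.675 ± 0.210 RPKM in 48 h glucose (SD, n = 3 each), 3.56 on the log2 scale (edgeR adjusted p = 9.60e-10). The highest of them on straw, an esterase/lipase gene on scaffold 10, had 57.0 ± 14.4 RPKM on straw and 3.52 ± 1.05 RPKM in 48 h glucose (SD, n = 3 each). It retained 12.4 ± 2.07 RPKM in 5 h glucose (SD, n = 2). The lipase/esterase gene on scaffold 11 fell on straw, with a log2 fold change of -1.48. In 5 h glucose over straw it was called higher at 1.24, a size close to the -1.27 by which library totals moved the median gene, so this direction depends on the scaling. A secreted esterase gene on scaffold 27 was not tested, with 5 reads in all straw libraries and 0 in all others. The straw means of these 6 listed genes lay below those of both CE5 genes, and esterases outside the list were not compared.

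The genes whose profile over the 8 libraries was closest to each member were sought with the root mean square difference of centred log2(TMM CPM + 1), among 6355 other genes with a mean of 20 or more counts. For axe1 these were glr1 at 0.41, cel61b at 0.43, xyn4 at 0.45, the beta-mannanase gene man1 at 0.48 and cel61a at 0.52. cel61a and cel61b encode lytic polysaccharide monooxygenases of family AA9, which cut crystalline cellulose by oxidation. For the second CE5 gene they were egl1 at 0.38, the cellobiohydrolase genes cbh1 at 0.46 and cbh2 at 0.46, a permease gene of the major facilitator superfamily at 0.52 and xyn4 at 0.53. xyn4 is the gene that both sets of 5 hold. The 2 members lay 0.54 apart, which made the second gene the 7th closest to axe1 and axe1 the 6th closest to the second gene. With a pseudocount of 5 in place of 1, 1 of the 5 genes remained among the closest 5 for each member.

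In the profile of egl1, the closest to the second CE5 gene, the straw libraries had 50.3, 172 and 50.9 RPKM, the 48 h glucose libraries 0.0482, 0 and 0.0510 RPKM and the 5 h glucose libraries 0.172 and 0.105 RPKM. As in the second CE5 gene, straw library 2 was the highest of the 3. In glr1, the closest to axe1, the straw libraries had 938, 1188 and 947 RPKM, with library 2 the highest, as in axe1. Both egl1 and glr1 were picked by a measure that takes in straw library 2, so these likenesses are not independent evidence. Of the 5 genes closest to axe1, cel61a, with 703, 570 and 732 RPKM, and man1, with 112, 96.9 and 116 RPKM, had library 2 as the lowest of the straw libraries.

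Of the 14 annotated genes nearest to axe1, 7 on each side, 4 could be tied to a deposited gene model. The 2 genes that follow axe1 in the RefSeq order were both members of the cellulose list: cip1, a secreted protein with a cellulose-binding module, at bases 523039 to 524216, and cel61a at bases 524767 to 526117. The 3 genes lie within 5890 bases of scaffold 1. cip1 had 323 ± 54.0 RPKM on straw (SD, n = 3), and its log2 fold change over 48 h glucose was 9.52 (edgeR adjusted p = 7.16e-14). cel61a had 668 ± 86.7 RPKM on straw (SD, n = 3), and the log2 value was 9.05 (edgeR adjusted p = 8.02e-14). After glucose the log2 fold changes over straw were -8.53 for cip1 and -8.22 for cel61a, beside -9.06 for axe1.

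The 2 other genes that could be tied to a model were far lower on straw. A gene for a NACHT domain protein, the fourth gene after axe1, had 6, 4 and 12 reads on straw, against 0, 0 and 1 read in 48 h glucose, and 1 and 0 reads in 5 h glucose. Its straw libraries lay above those of both glucose stages, but with a mean of 0.313 RPKM on straw it did not pass the filter and was not tested. The seventh gene, similar to the yeast translation factor Sua5p, had 4.97 ± 0.282 RPKM on straw (SD, n = 3), and its log2 fold change over 48 h glucose of -0.34 did not pass the test (edgeR adjusted p = 0.125). These flanking genes other than cip1 and cel61a were chosen after their values could be seen. Of the 1025 genes on scaffold 1, 822 were tested and 26.6% of those were higher on straw.

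Around the second CE5 gene, 5 of 14 flanking genes could be tied to a model, also after their values could be seen. None of those tested was called higher on straw, beside 30.6% of all genes tested and 26.6% of those on scaffold 1. With so few tested, these shares could give the same result, and the flanks of the 2 members were not compared by a test. An unknown protein gene, the next after it at 2298 bases from start to start, had a mean of 0.0825 RPKM on straw and was not tested, and neither was a heme peroxidase gene at 0.265 RPKM. An oxysterol binding protein gene had 12.8 ± 0.777 RPKM on straw (SD, n = 3) and was called lower there than in 48 h glucose, at -0.58 on the log2 scale (edgeR adjusted p = 0.00383), a change smaller than the 0.80 by which library totals moved the median gene. Another unknown protein gene and a short-chain dehydrogenase gene, with 4.46 and 1.99 RPKM on straw, had log2 fold changes of 0.28 and 0.44 that did not pass the test (edgeR adjusted p = 0.322 and 0.325).

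**Figure D4:**
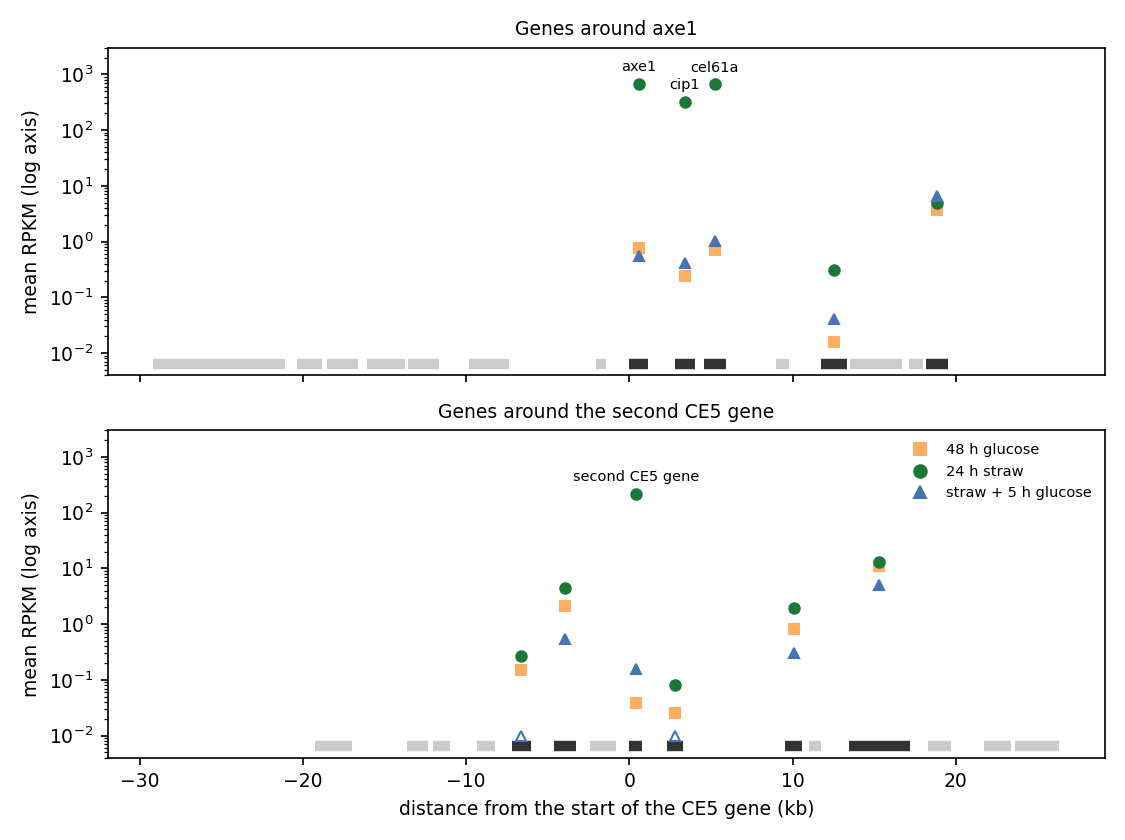
Mean RPKM on a log axis in the 3 conditions for the genes around axe1 (top) and around the second CE5 gene (bottom), by distance in kb from the start of the CE5 gene; bars at the base are RefSeq genes, dark where a deposited model could be tied to them, and open symbols mark a mean of 0. axe1, cip1 and cel61a had straw means of 676, 323 and 668 RPKM side by side, while the tied neighbours of the second gene reached at most 12.8 RPKM.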

How the data were processed

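Whole-mycelium RNA was rRNA-depleted and sequenced by the authors on the SOLiD platform as single 50 base reads, mapped with BioScope to the JGI assembly v2.0, and counted per gene with HTSeq from uniquely aligned reads. The deposited files give whole-number read counts per gene model, and RPKM computed by the authors from gene length and mapped reads. Whether the counts hold sense reads only is not given in the sources used here.

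The counts were tested with edgeR 4.0.16 in R 4.3.3 (filterByExpr, TMM factors, quasi-likelihood test, all 8 libraries in 1 fit with condition as the only term), with Benjamini-Hochberg adjustment over 7211 genes and a threshold of 0.05. The procedure was tested on simulated data. TMM CPM are counts scaled by the TMM-adjusted library size. RPKM served for levels only. Exact intervals and permutations came from scipy 1.17.1. Intervals and floors of 3 reads cover counting error only.

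The members and lists were chosen with earlier results of these data known. Genes named were the members, 4 lists (xylan, cellulose, pentose, other esterases) and the 5 closest profiles of each member, plus flanking genes. Symbols were tied to models through the study's gene tables, by matching the condition means of RPKM where no identifier was shared, and positions and order through RefSeq. Alternatives were DESeq2 1.42.0, library totals, no filter, the 2 conditions alone, a replicate block, straw libraries 1 and 3 summed, each library left out, Fisher's exact test on pooled counts and a threshold of 0.001, and other pseudocounts (0.25 and 5) for the profiles.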

Additional observations from a re-analysis of the deposited data

How the results depend on the processing

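Both CE5 genes kept their direction and stayed past the threshold in straw over 48 h glucose and in 5 h glucose over straw under all 16 alternatives, each library left out included. For straw over 48 h glucose, leaving out libraries gave log2 fold changes of 8.76 to 9.15 for axe1 and 10.64 to 13.36 for the second gene. For 5 h glucose over straw they gave -9.47 to -8.80 and -9.30 to -8.54. In 5 h glucose over 48 h glucose no alternative brought either gene past the threshold. The log2 fold change of axe1 there ranged from -0.52 to 0.15 with a library left out, and it was 0.09 without 48 h glucose library 1 and 0.15 without 5 h glucose library 2, against -0.11 with all libraries. The adjusted p of the second gene ranged from 0.230 to 0.651, and the fit of those 2 conditions alone gave no value because its reads failed the filter.

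At an adjusted p below 0.001, 2675, 2355 and 1608 genes were called in straw over 48 h glucose, 5 h glucose over straw and 5 h glucose over 48 h glucose, against 4237, 4222 and 3521 at 0.05. With a library left out the counts were 3708 to 4596, 3650 to 4262 and 2795 to 3468. The log2 ratio of the second gene over axe1 on straw was -2.36 from counts without division by length, by construction, and -2.08 to -1.60 with a straw library left out. With a pseudocount of 5, 1 of the 5 closest genes was shared for axe1 and 1 for the second gene, and with 0.25 it was 4 for each.

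Libraries with the same replicate number did not deviate together (correlations of their deviations from -0.0265 to 0.153), so the numbers were not taken as pairing. A fit with the replicate number as a block called 4199, 4097 and 3388 genes and gave log2 fold changes of 8.93 and -9.09 for axe1 and 11.21 and -9.30 for the second gene in straw over 48 h glucose and 5 h glucose over straw, and -0.16 for axe1 in 5 h glucose over 48 h glucose. The adjusted p of the second gene there was 0.287. The block changed no call of either gene. Depth limits the glucose stages, where axe1 had 4 to 14 reads and the second gene 0 or 1 read in a library.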
